A study of Mus musculus with 6 samples.

Results

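The genes described here are 33 genes of the contractile apparatus of the heart muscle cell, among the 22815 genes that the array probes name. They were chosen with earlier results of these data known. They comprise 6 genes of the thick filament, 9 of the thin filament, 3 of titin and the M-band, 9 of the Z-disc, 4 of the cytoskeleton and of sarcomere assembly, and 2 regulators. All 33 were among the 14701 genes tested. Their 51 probes were well above background on all 6 arrays, and 0 spots were saturated.

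The sarcomere is the repeating unit of striated muscle. Myosin thick filaments pull on actin thin filaments, troponin and tropomyosin on the thin filament make that pull depend on calcium, and titin spans from the Z-disc, where thin filaments of neighbouring sarcomeres are anchored, to the M-band, where thick filaments are cross-linked. Desmin ties the Z-discs to each other and to the cell membrane, chaperones fold and place the myosin, and the transcripts of the main filament proteins of the ventricle are abundant there.

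The measurements are 1-colour microarray signals from the hearts of male C57BL6 mice aged 10 weeks, 1 array per mouse. Every mouse was starved for 16 h and then injected into the peritoneum with 20 mg/kg of lipopolysaccharide (LPS), a component of the bacterial wall that sets off a septic type of inflammation. The 3 rhTM mice were then given recombinant human thrombomodulin, a soluble form of the endothelial receptor for thrombin, at 3 and 24 h, and the 3 saline mice were given saline at the same times. Hearts were taken 30 h after LPS, the dose of rhTM is not given in the sources used here, and no heart without LPS was analysed here, so every difference is rhTM against saline after LPS.

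A level is the log2 of the signal over its own array's 75th percentile, and differences are rhTM minus saline on that log2 scale with the standard error (SE) of the limma fit (n = 3 and 3). A gene was said to have changed at an adjusted p under 0.05 in limma, adjusted over all 14701 genes. The arrays lay on 2 slides: slide 1 held saline 1 and 2, and slide 2 held saline 3 and the rhTM arrays. The difference with the slide as a block is therefore the rhTM mean minus saline 3, and rests on 1 saline array. Without saline 3, all saline arrays are on slide 1 and all rhTM arrays on slide 2, so rhTM and slide cannot be told apart. Between 57.1% and 62.8% of spots were well above background on the rhTM arrays, against 54.8% to 58.9% on the saline arrays. The R2 of the line fitted to the spike-in controls was 0.990 and 0.987 on saline 1 and 2, on slide 1. On slide 2 it was 0.845 on saline 3, the lowest, and 0.870, 0.881 and 0.865 on rhTM 1, 2 and 3. The 75th percentile of the signal was 288 to 325 on the rhTM arrays, against 502, 463 and 272 on saline 1, 2 and 3. The hearts are bulk tissue, in which fewer cells of a type and less RNA per cell cannot be told apart.

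In the full comparison leiomodin-2 and Smyd1 passed as higher in rhTM hearts, and 0 of the 33 genes fell. Among all genes tested 5.29% changed, 2.68% that rose and 2.61% that fell, so 2 of 33 was close to that background. With no filter on dim probes neither passed (limma adjusted p = 0.080 for Lmod2 and 0.091 for Smyd1). Nor did either pass when rhTM 1, rhTM 2, saline 1 or saline 2 was left out. With the replicate number as a block Smyd1 did not pass (limma adjusted p = 0.058), and within slide 2 its difference was 0.85, against 1.44 over all arrays. Another 5 genes had an unadjusted p under 0.05 in limma and did not pass after adjustment. The median difference of the 33 genes was 0.44, beside -0.00 for all genes tested, with 25 genes above 0 and 8 below. Within slide 2 the median was 0.75, beside -0.02 for all genes, with 28 genes above 0. Without saline 3 it was 0.09, beside -0.03 for all genes, with 18 genes above 0.

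**Figure D1:**
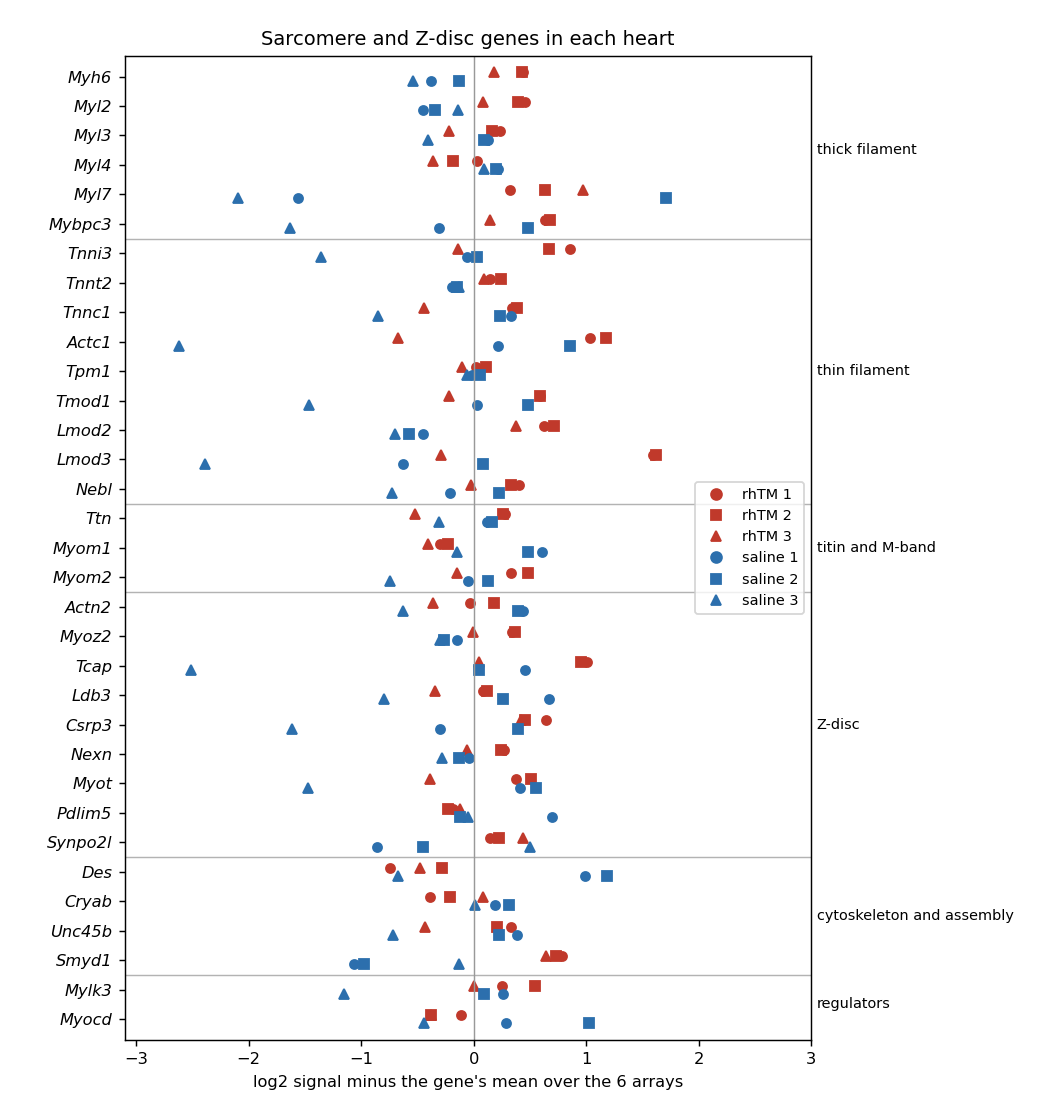
Log2 signal of each of the 33 genes on each of the 6 arrays, minus the gene's own mean over the 6 arrays (horizontal axis), with rhTM arrays in red above saline arrays in blue and the genes grouped by role. Saline 3, the blue triangle, is the lowest of the 6 arrays for 22 of the 33 genes.

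The promoters of 5 genes are shown to set the genes that passed in the full comparison beside others of the 33 that did not. They are windows of 300 bases, 250 before and 50 after an annotated start. The genes are Lmod2 and Smyd1, which passed, the main myosin heavy chain Myh6, Actc1, which varied widely between hearts, and Myom1, whose rhTM arrays lay below the saline arrays. Sequences are RefSeq's for GRCm38.p6, read 5′ to 3′ on the strand of the gene, with capitals where a motif was found on either strand. The coordinates are chr6:24597521-24597820 on the plus strand for Lmod2, chr6:71262232-71262531 on the minus strand for Smyd1, chr14:54966558-54966857 on the minus strand for Myh6, chr2:114052826-114053125 on the minus strand for Actc1, and chr17:71019307-71019606 on the plus strand for Myom1.
Lmod2: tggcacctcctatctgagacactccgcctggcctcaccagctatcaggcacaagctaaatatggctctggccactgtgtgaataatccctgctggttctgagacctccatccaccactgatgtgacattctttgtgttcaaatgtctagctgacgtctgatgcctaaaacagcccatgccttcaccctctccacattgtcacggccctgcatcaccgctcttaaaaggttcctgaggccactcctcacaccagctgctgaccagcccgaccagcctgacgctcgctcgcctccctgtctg
Smyd1: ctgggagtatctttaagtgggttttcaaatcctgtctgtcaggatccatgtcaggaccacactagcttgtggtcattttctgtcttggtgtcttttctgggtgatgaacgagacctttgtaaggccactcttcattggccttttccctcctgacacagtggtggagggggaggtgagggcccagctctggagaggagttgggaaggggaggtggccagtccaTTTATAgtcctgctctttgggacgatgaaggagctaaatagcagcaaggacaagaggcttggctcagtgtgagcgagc
Myh6: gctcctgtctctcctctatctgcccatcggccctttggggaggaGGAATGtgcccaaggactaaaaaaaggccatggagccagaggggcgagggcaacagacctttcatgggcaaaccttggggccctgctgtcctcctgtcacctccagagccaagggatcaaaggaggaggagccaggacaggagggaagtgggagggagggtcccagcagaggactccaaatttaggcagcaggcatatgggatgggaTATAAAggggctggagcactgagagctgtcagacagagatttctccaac
Actc1: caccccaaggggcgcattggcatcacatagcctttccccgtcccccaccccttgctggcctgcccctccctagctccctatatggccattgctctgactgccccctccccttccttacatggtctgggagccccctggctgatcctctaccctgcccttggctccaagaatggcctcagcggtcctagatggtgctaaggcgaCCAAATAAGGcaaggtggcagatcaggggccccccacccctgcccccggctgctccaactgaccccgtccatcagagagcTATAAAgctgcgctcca
Myom1: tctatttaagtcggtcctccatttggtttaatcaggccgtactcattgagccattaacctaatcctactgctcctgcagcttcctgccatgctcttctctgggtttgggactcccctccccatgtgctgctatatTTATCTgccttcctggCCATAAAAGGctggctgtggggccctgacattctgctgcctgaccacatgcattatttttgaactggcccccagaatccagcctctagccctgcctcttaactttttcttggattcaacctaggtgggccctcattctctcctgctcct

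The capitals mark, counted from base 1 of each window, a TATA box at base 223 in Smyd1, an M-CAT element at base 45 and a TATA box at base 252 in Myh6, a CArG box at base 204 and a TATA box at base 284 in Actc1, and a GATA element at base 136 and a CArG box at base 152 in Myom1. Counted from the annotated start, the TATA match was at -28 in Smyd1, where it lay on the opposite strand. It was at 1 in Myh6 and at 33 in Actc1, both after the start. None of the searched motifs was in the Lmod2 window. The search covered, on both strands, the binding sequence of the muscle factor MEF2, the CArG box that serum response factor binds, the GATA element (AGATAA or TGATAA), the M-CAT element of TEAD factors (CATTCC) and the TATA box (TATAAA). A MEF2 match can hold the letters of a TATA box, which none of the matches in these genes did.

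Of the 33 genes, 26 had an entry in the promoter table, with 36 promoters among 32851 in all. A CArG box was in 7 of the 36 promoters (19.4%), beside 1.63% of all promoters, and lay in Actc1, Myom1, Nebl, Myl3, Myl7 and, in overlapping windows, Ldb3. MEF2 matches were in 5 promoters (13.9%), beside 3.19% of all, namely those of Ttn, Mybpc3, Myoz2 and 2 of Synpo2l. M-CAT elements were in 10 promoters (27.8%, beside 14.7%), GATA elements in 9 (25%, beside 18.6%) and TATA boxes in 5 (13.9%, beside 13.6%). A match of letters describes the window and does not show that a factor binds there. Lmod3, Myom2, Tcap, Nexn, Myot, Cryab and Myocd had no entry.

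Among the thick filament genes 0 of 6 passed, with a median difference of 0.66, or 0.68 within slide 2 and 0.48 without saline 3. Myh6 (NM_001164171), the main cardiac myosin heavy chain of the adult mouse, was at 10.17, 10.16 and 9.91 in rhTM 1, 2 and 3, against 9.35, 9.59 and 9.19 in saline 1, 2 and 3. All rhTM hearts lay above all saline hearts. The difference was 0.70 ± 0.20 (limma adjusted p = 0.081), it was 0.89 within slide 2 (limma adjusted p = 0.068), and without saline 3 it was 0.61 (limma adjusted p = 0.035). A dimmer probe of Myh6 gave 0.77, with overlapping arrays. Quantile normalization lowered the difference of the brightest probe to 0.36 (limma adjusted p = 0.46). Before scaling, that probe's signal was 373590, 369210 and 276650 in rhTM hearts, against 327760, 358120 and 158520 in saline hearts. The part of the scaling in the difference was not tested.

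Myl2 (NM_010861), the regulatory light chain of ventricular myosin, was at 10.15, 10.08 and 9.78 in rhTM hearts, against 9.24, 9.35 and 9.56 in saline hearts. Every rhTM heart was again above every saline heart, and rhTM 3 and saline 3, the closest pair, lay on the same slide. The difference of 0.62 ± 0.20 did not pass (limma adjusted p = 0.10), was 0.45 within slide 2 (limma adjusted p = 0.22) and was 0.71 without saline 3 (limma adjusted p = 0.025). Quantile normalization lowered the difference of Myl2 to 0.26 (limma adjusted p = 0.42). Myl3, the ventricular essential light chain, differed by 0.12 ± 0.24, with a 95% interval from -0.44 to 0.69.

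Cardiac myosin-binding protein C, Mybpc3, which brakes the interaction of myosin and actin, was at 8.92, 8.96 and 8.43 in rhTM hearts, against 7.98, 8.77 and 6.66 in saline hearts. Saline 2 lay within the rhTM range and saline 3 far below it. The difference of 0.97 ± 0.52 did not pass (limma adjusted p = 0.25), within slide 2 that of 2.11 did (limma adjusted p = 0.044), and without saline 3 it was 0.40 (limma adjusted p = 0.33). The per-array values of Mybpc3 and of all further genes below that neither passed nor had separate groups with a difference of at least 0.58 were chosen for print after they had been seen.

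Neither atrial light chain passed. Myl7, the atrial regulatory light chain, was at -0.80, -0.49 and -0.15 in rhTM hearts, against -2.68, 0.59 and -3.22 in saline hearts. The highest and the lowest value of Myl7 were both from saline hearts, and the difference was 1.29 ± 0.95 (limma adjusted p = 0.38), or 0.57 without saline 3. Myl4, the atrial essential light chain, had rhTM arrays below saline arrays, with a difference of -0.34 ± 0.19 (limma adjusted p = 0.25). Among 4 tested atrial markers of other kinds 0 passed, with a median of 0.74. The atrial hormone gene Nppa differed by 0.83 ± 0.34 (limma adjusted p = 0.16), and the atrial potassium channel gene Kcnj3 by 0.99 ± 0.42 (limma adjusted p = 0.17).

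Of the 9 thin filament genes 1 rose, all 9 had a difference above 0, and the median was 0.64, or 1.27 within slide 2. Without saline 3 the median was 0.23, with 6 of 9 above 0. Lmod2 (NM_053098), leiomodin-2, lengthens the thin filament at its pointed end. It was at 2.20, 2.28 and 1.95 in rhTM hearts, against 1.12, 0.99 and 0.87 in saline hearts, so the groups were apart and the spread within each was small. The difference was 1.15 ± 0.19, or 2.22-fold (limma adjusted p = 0.0333). It passed within slide 2, at 1.27 (limma adjusted p = 0.0365), with the replicate number as a block (limma adjusted p = 0.0475) and without saline 3, at 1.09 (limma adjusted p = 0.00714). It did not pass when rhTM 1 (1.12, limma adjusted p = 0.17), rhTM 2 (1.08, 0.20), saline 1 (1.21, 0.13) or saline 2 (1.15, 0.094) was left out. The probe table held 1 probe of Lmod2.

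**Figure D2:**
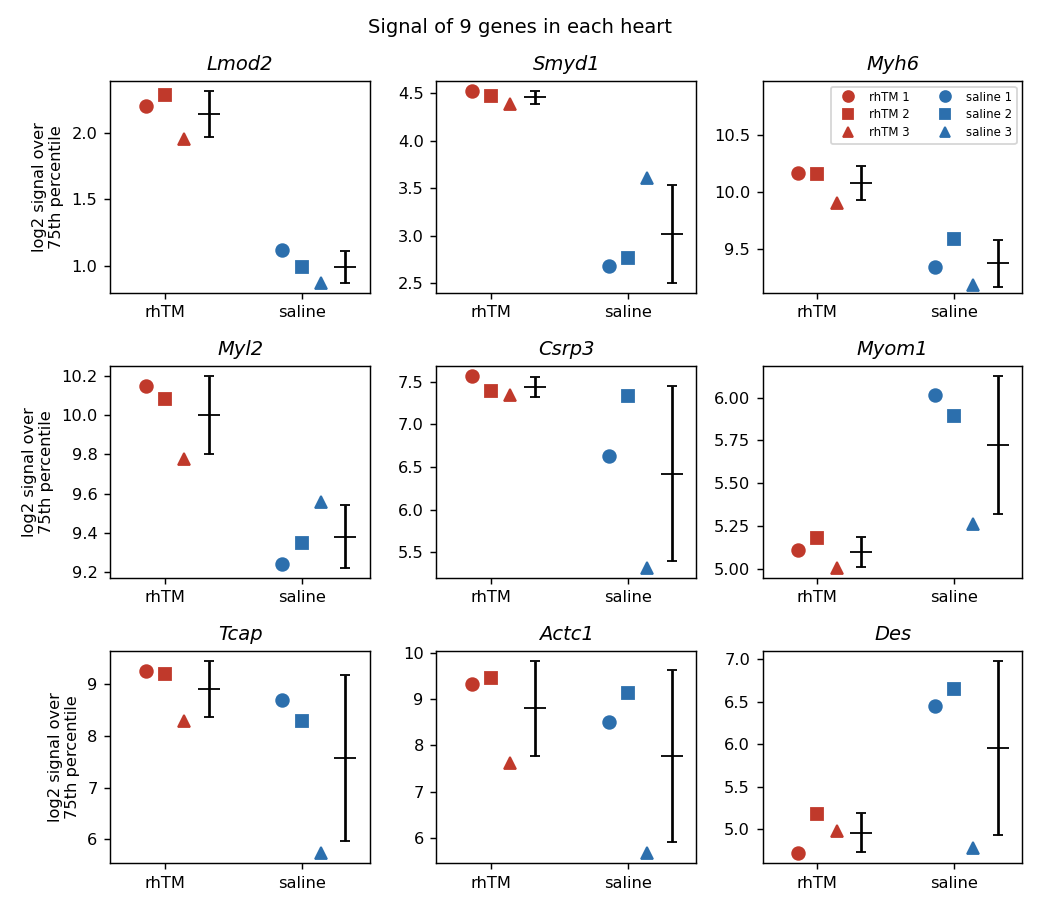
Log2 signal over the array's 75th percentile (vertical axis, a separate range in each panel) of 9 genes in each heart, rhTM hearts in red left of saline hearts in blue, with the group mean and SD (n = 3 each) in black. The groups of Lmod2, Smyd1, Myh6, Myl2, Csrp3 and Myom1 do not overlap, while for Tcap and Actc1 saline 3 lies at 5.73 and 5.67, far below saline 1 and 2.

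Its relative Lmod3, a nucleator of thin filaments, had the largest difference of the 33 genes. It was at 4.65, 4.67 and 2.76 in rhTM hearts, against 2.42, 3.13 and 0.66 in saline hearts. The rhTM 3 heart lay between saline 1 and saline 2. The difference of 1.96 ± 0.77 did not pass (limma adjusted p = 0.15), was 3.37 within slide 2 (limma adjusted p = 0.073) and was 1.25 without saline 3 (limma adjusted p = 0.18). With the replicate number as a block it did pass (limma adjusted p = 0.040). Tmod1, tropomodulin-1, which caps the same filament end, differed by 0.64 ± 0.53 (limma adjusted p = 0.43), or by 0.07 without saline 3.

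Cardiac alpha-actin, Actc1, was at 9.32, 9.45 and 7.61 in rhTM hearts, against 8.50, 9.14 and 5.67 in saline hearts. The lowest heart of each group carried the number 3, and the groups overlapped widely. The difference was 1.03 ± 0.96 (limma adjusted p = 0.49), and -0.02 without saline 3. Cardiac troponin I, Tnni3, was at 9.27, 9.08 and 8.27 in rhTM hearts, against 8.36, 8.45 and 7.06 in saline hearts, a difference of 0.92 ± 0.45 (limma adjusted p = 0.22), or 0.47 without saline 3, and its other probe gave 1.11.

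Cardiac troponin T, Tnnt2, was at 9.67, 9.77 and 9.61 in rhTM hearts, against 9.33, 9.38 and 9.39 in saline hearts. The groups did not overlap, and saline 3 was the highest saline heart. Its difference was 0.32 ± 0.16 (limma adjusted p = 0.23), and quantile normalization turned it to -0.01. Before scaling, the Tnnt2 signal was 264970, 281370 and 225830 in rhTM hearts, against 323240, 307810 and 182630 in saline hearts. Unscaled, rhTM 1 and 2 thus lay below saline 1 and 2. Troponin C, Tnnc1, differed by 0.19 ± 0.40, nebulette, Nebl, an actin-binding protein of the Z-disc end of the filament, by 0.47 ± 0.29, and alpha-tropomyosin, Tpm1, by 0.01 ± 0.17, with a 95% interval from -0.39 to 0.42.

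Titin and the M-band genes had a median difference of 0.01, or 0.31 within slide 2 and -0.14 without saline 3, and 0 of 3 passed. Myom1 (NM_010867), myomesin-1, which cross-links thick filaments at the M-band, was at 5.11, 5.18 and 5.002 in rhTM hearts, against 6.01, 5.90 and 5.26 in saline hearts. All rhTM hearts were below all saline hearts, and saline 3 was the nearest to them. The difference was -0.63 ± 0.25 (limma adjusted p = 0.15), it was -0.16 within slide 2 (limma adjusted p = 0.55), and without saline 3 it was -0.86 (limma adjusted p = 0.0087). Its relative Myom2 differed by 0.44 ± 0.30 and titin itself, Ttn, by 0.01 ± 0.28, with a 95% interval from -0.67 to 0.69.

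Among the 9 Z-disc genes 0 passed, with a median of 0.34, or 0.55 within slide 2 and 0.24 without saline 3. Csrp3 (NM_013808), muscle LIM protein, was at 7.57, 7.39 and 7.35 in rhTM hearts, against 6.63, 7.33 and 5.31 in saline hearts. The groups were apart by a narrow margin, since saline 2 came close to the lowest rhTM heart. The difference of 1.01 ± 0.49 did not pass (limma adjusted p = 0.21), within slide 2 that of 2.12 did (limma adjusted p = 0.031), and without saline 3 it was 0.46 (limma adjusted p = 0.18).

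Tcap, telethonin, which caps titin at the Z-disc, was at 9.25, 9.19 and 8.29 in rhTM hearts, against 8.70, 8.29 and 5.73 in saline hearts. Saline 3 was the lowest of all 6 hearts by a wide margin. The difference was 1.34 ± 0.78 (limma adjusted p = 0.28), it was 3.18 within slide 2 (limma adjusted p = 0.029), and 0.41 without saline 3 (limma adjusted p = 0.38). Myoz2, calsarcin-1, a partner of calcineurin at the Z-disc, was at 7.35, 7.37 and 7.001 in rhTM hearts, against 6.86, 6.74 and 6.71 in saline hearts. Its groups were apart, with a difference of 0.47 ± 0.19 (limma adjusted p = 0.15).

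Synpo2l, a synaptopodin-like protein of the Z-disc, was at 4.51, 4.59 and 4.80 in rhTM hearts, against 3.51, 3.92 and 4.86 in saline hearts, so that saline 3 was the highest of all hearts. The difference was 0.54 ± 0.36 over all arrays (limma adjusted p = 0.33), -0.23 within slide 2, and 0.92 without saline 3 (limma adjusted p = 0.016). A dimmer probe of Synpo2l differed by -0.12 ± 0.90, and by 2.11 within slide 2, with saline 3 as its lowest heart. Alpha-actinin-2, Actn2, the cross-linker of actin at the Z-disc, differed by -0.14 ± 0.34, and by 0.55 within slide 2. The other Z-disc genes, none of which passed, differed by -0.10 (Ldb3, a PDZ-LIM protein), 0.30 (Nexn, an actin-binding protein), 0.34 (Myot, myotilin) and -0.35 (Pdlim5, another PDZ-LIM protein).

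In the group of cytoskeleton and assembly genes 1 of 4 rose, with a median of -0.14, or 0.46 within slide 2 and -0.35 without saline 3. Smyd1 (NM_009762), a muscle lysine methyltransferase that takes part in sarcomere assembly, was at 4.52, 4.47 and 4.38 in rhTM hearts, against 2.68, 2.76 and 3.61 in saline hearts. The groups were apart, and saline 3 was the saline heart nearest to the rhTM hearts. The difference was 1.44 ± 0.28, or 2.72-fold (limma adjusted p = 0.0440). Within slide 2 it was 0.85 and no longer passed (limma adjusted p = 0.0516), nor did it with the replicate number as a block (limma adjusted p = 0.0581). Without saline 3 it was 1.74 (limma adjusted p = 0.00179), and leaving out any other array gave limma adjusted p-values from 0.066 to 0.21. A dimmer probe of Smyd1 differed by 0.54 ± 0.37 (limma adjusted p over all probes = 0.36), and saline 3 was its lowest heart, at -1.61.

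Des, desmin, the intermediate filament of muscle, was at 4.72, 5.18 and 4.98 in rhTM hearts, against 6.45, 6.65 and 4.79 in saline hearts. Saline 3 fell among the rhTM hearts and the other saline hearts lay well above them. The difference was -1.0 ± 0.50 (limma adjusted p = 0.22), turned to 0.17 within slide 2 (limma adjusted p = 0.64), and was -1.59 without saline 3 (limma adjusted p = 0.0044). Alpha-B-crystallin, Cryab, a small heat shock protein that binds desmin and titin, differed by -0.34 ± 0.20. The myosin chaperone Unc45b differed by 0.07 ± 0.36.

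Of the regulators, 0 of 2 passed. Mylk3, the kinase of cardiac myosin light chain, was at 4.31, 4.61 and 4.06 in rhTM hearts, against 4.33, 4.15 and 2.91 in saline hearts. Its groups overlapped, with a difference of 0.53 ± 0.40 (limma adjusted p = 0.39), within slide 2 it was 1.42 and passed (limma adjusted p = 0.044), and without saline 3 it was 0.09 (limma adjusted p = 0.75). Myocd, myocardin, a coactivator of serum response factor, was at 2.53, 2.26 and 2.25 in rhTM hearts, against 2.92, 3.66 and 2.19 in saline hearts. Its difference was -0.58 ± 0.37 (limma adjusted p = 0.32), 0.15 within slide 2, and -0.94 without saline 3 (limma adjusted p = 0.035).

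**Figure D3:**
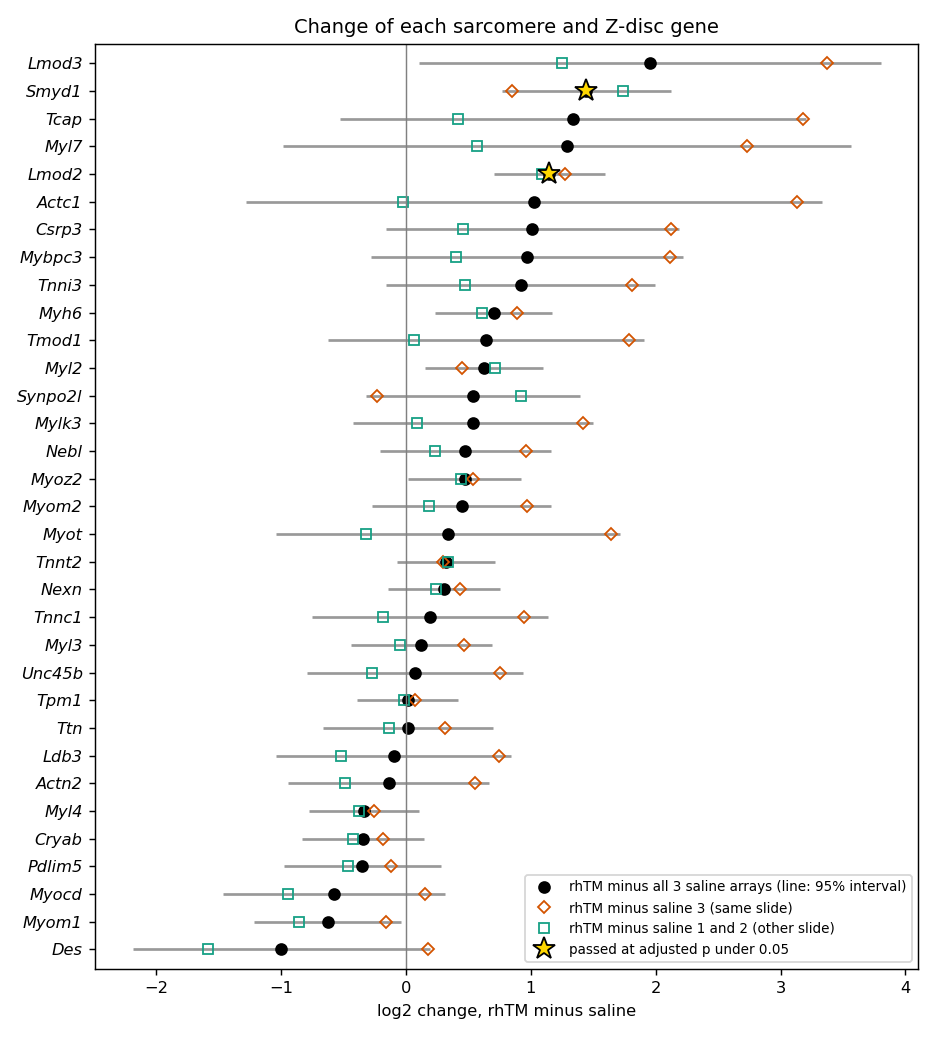
Difference of each of the 33 genes in log2 signal, rhTM minus saline (horizontal axis), against all 3 saline arrays (black points, with the 95% interval as a line), against saline 3 on the same slide (open diamonds) and against saline 1 and 2 on the other slide (open squares), ordered by the black point. Stars mark Smyd1 and Lmod2, which passed at a limma adjusted p under 0.05.

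Which genes passed differed with the saline hearts used. Within slide 2 the genes that passed were Csrp3, Lmod2, Mybpc3, Mylk3 and Tcap, 5 of 33, all higher in rhTM, beside 3.65% of all genes that were called higher and 2.07% lower. That fit takes its spread from the 3 rhTM arrays and from saline 1 and 2, so saline 3 is assumed to vary like them. With the replicate number as a block Lmod2 and Lmod3 rose, 2 of 33, and 0 fell, beside 2.37% and 1.67% of all genes. Without saline 3 the genes called higher were Lmod2, Myh6, Myl2, Smyd1 and Synpo2l, 5 of 33, beside 19.9% of all genes. In that fit Des, Myocd and Myom1 were called lower, 3 of 33, beside 19.8% of all genes. As group and slide coincide in that fit, these calls cannot be put down to rhTM or to the slide. Lmod2 was the gene that passed in the full comparison, within slide 2, with the replicate block and without saline 3. With rhTM 3 and saline 3 both left out, 10 of the 33 genes were called higher and 3 lower. The shares of all genes were 26.3% and 27%. That alternative was chosen after the data were seen, and rhTM and slide again cannot be told apart in it.

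The groups did not overlap for 9 of 33 genes, beside 35.6% of all genes tested. Of the 33, 7 had rhTM above and 2 had rhTM below, beside 16.1% and 19.5% of all genes tested. Those above were Myh6, Myl2, Tnnt2, Lmod2, Myoz2, Csrp3 and Smyd1, and those below were Myl4 and Myom1. The remaining 24 overlapped.

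Hearts numbered 3 were low for most of these genes in both groups. The rhTM 3 heart was the lowest rhTM heart for 28 of 33 genes (84.8%), beside 45.2% of all genes, with a median of -0.36 against the mean of rhTM 1 and 2. Saline 3 was the lowest of all 6 hearts for 22 of 33 genes (66.7%), beside 23.2% of all genes. It lay at least 1 log2 unit below the mean of saline 1 and 2 for 16 genes (48.5%), beside 11.5% of all genes. The widest gaps of that kind were -3.15 for Actc1, -2.77 for Tcap, -2.17 for Myl7 and -2.12 for Lmod3. The brightest probes of Synpo2l and Smyd1 were instead higher in saline 3 than in the other saline hearts, by 1.15 and 0.89. Their dimmer probes were lower there, at -3.49 and -1.61. In saline 1 and 2 those were at -0.49 and 0.20 for Synpo2l and at -0.78 and -0.25 for Smyd1.

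The mean log2 level of the 33 genes was 6.08, 6.11 and 5.67 in rhTM hearts, against 5.74, 5.95 and 4.95 in saline hearts. Beside these stand the transcripts of neutrophils. Of 8 neutrophil markers 7 were tested, 0 passed, and their median difference was -3.42, or -5.66 within slide 2 and -2.14 without saline 3. Their summed signal, in units of the array's 75th percentile, was 150, 124 and 703 in rhTM hearts, against 199, 316 and 1523 in saline hearts. All 7 were well above background on all 6 arrays. The hearts numbered 3 were thus highest for neutrophil markers and lowest for the sarcomere genes in each group. The part of neutrophils, and of the slide, in the differences above was not tested.

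**Figure D4:**
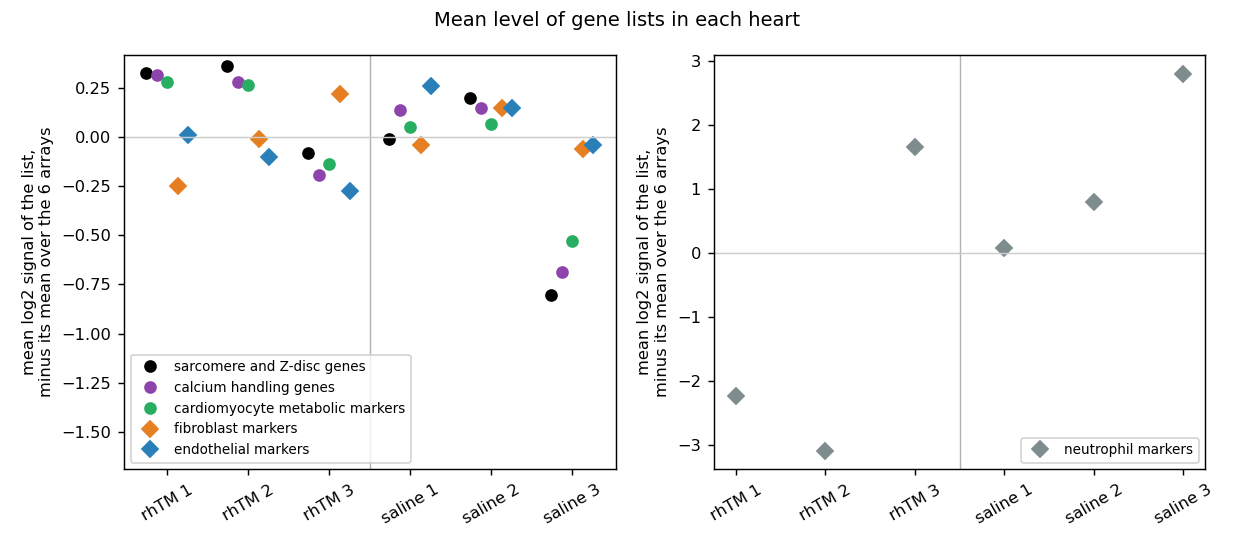
Mean log2 signal of gene lists in each heart, minus the list's mean over the 6 arrays (vertical axes, with different ranges), for the sarcomere and Z-disc genes, 2 further lists of cardiomyocyte genes and the fibroblast and endothelial markers (left) and for the neutrophil markers (right), rhTM hearts left of saline hearts. Saline 3 is lowest for the 3 cardiomyocyte lists and highest for the neutrophil markers.

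Different probes of the same gene mostly went the same way. Of the 33 genes 15 had more than 1 probe, and 13 of their 18 dimmer probes had the sign of the brightest probe. The differing signs were in Tpm1, Ttn, Nexn and Synpo2l. Over all 30322 probes tested, 2.16% rose and 1.41% fell in limma. Of the 51 probes of these genes, that of Lmod2 and the brighter of Smyd1 rose. Neither passed over all probes with the replicate block (limma adjusted p = 0.058 and 0.070). Of Pdlim5, 1 probe fell.

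That probe was designed on the transcript NM_001190852 of Pdlim5, a PDZ-LIM protein that binds alpha-actinin, and was singled out after its values were seen. It was at -0.34, 0.08 and 1.34 in rhTM hearts, against 3.32, 2.76 and 3.49 in saline hearts. The groups were far apart, with saline 3 the highest heart. The difference was -2.83 ± 0.46, or 7.13-fold lower (limma adjusted p over all probes = 0.0341). It was -3.13 within slide 2, where it no longer passed (limma adjusted p = 0.0569), nor did it with the replicate block (limma adjusted p = 0.0503). The 2 other probes of Pdlim5, on the transcript NM_019809, differed by -0.35 ± 0.27 and -0.29 ± 0.25. Likewise a dim probe of Tpm1 on NM_001164251 was at -2.12, -2.01 and -1.97 in rhTM hearts, against -1.34, -1.20 and -1.37 in saline hearts, groups that did not overlap. Its difference was -0.73 ± 0.18 (limma adjusted p over all probes = 0.073), while the other Tpm1 probes gave 0.01 and -0.03. Which spliced forms each probe reads was not tested.

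**Figure D5:**
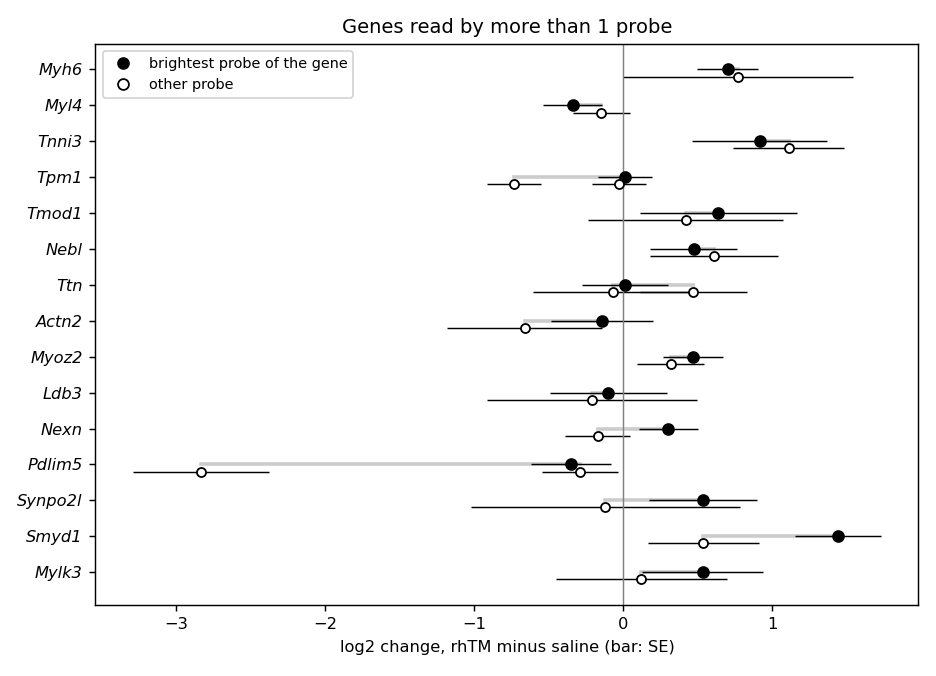
Difference in log2 signal, rhTM minus saline (horizontal axis), of every probe of the 15 genes with more than 1 probe, with the SE of the fit as a bar, the brightest probe filled and the other probes open. The probe of Pdlim5 on NM_001190852 lies at -2.83, apart from the other probes of that gene.

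Of 34 other genes of the sarcomere, Z-disc and M-band 32 were tested, 0 rose and 3 fell. Their median was -0.24, with 14 above 0 and 18 below, and it was 0.19 within slide 2, with 20 above 0, and -0.40 without saline 3. Flnc, filamin C, which links actin at the Z-disc, was at 4.44, 4.67 and 4.38 in rhTM hearts, against 6.78, 6.85 and 5.75 in saline hearts. It fell by 1.97 on the log2 scale (SE 0.33, limma adjusted p = 0.035). Pdlim7, a PDZ-LIM protein of the Z-disc, differed by -1.67 ± 0.23 (limma adjusted p = 0.025), and Fhl1, a LIM protein that binds titin, by -1.44 ± 0.21 (limma adjusted p = 0.027). All 3 passed within slide 2 and with the replicate block as well.

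At the costamere and the intercalated disc, where sarcomeres attach to the membrane, 1 of 19 genes rose and 1 fell, with a median of -0.24, which was 0.12 within slide 2. Itga7, the laminin-binding integrin alpha-7 of muscle, was at 5.55, 5.66 and 6.03 in rhTM hearts, against 7.81, 7.67 and 7.66 in saline hearts. It fell by 1.97 on the log2 scale (SE 0.20, limma adjusted p = 0.015), and within slide 2 as well (limma adjusted p = 0.027). Tln2, talin-2, which couples integrins to actin, rose by 1.75 ± 0.29 (limma adjusted p = 0.035), and within slide 2 the difference of 1.87 did not pass (limma adjusted p = 0.060).

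Among 14 calcium handling genes 1 rose and 0 fell, with a median of 0.39, or 0.66 within slide 2 and 0.10 without saline 3. Pln, phospholamban, the inhibitor of the calcium pump of the sarcoplasmic reticulum, was at 7.38, 7.23 and 6.86 in rhTM hearts, against 6.02, 6.13 and 5.33 in saline hearts. It rose by 1.33 ± 0.28 (limma adjusted p = 0.048), and by 1.83 within slide 2 (limma adjusted p = 0.029). Camk2d, a calcium-dependent kinase, differed by -1.05 ± 0.23 and did not pass (limma adjusted p = 0.053).

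Of 17 cardiac transcription factors and cofactors 0 passed, with a median of -0.26, which was 0.28 within slide 2. The lowest p belonged to Hand2, at -1.46 ± 0.34 (limma adjusted p = 0.059), and to the nuclear receptor gene Esrrg, at 1.13 ± 0.33 (limma adjusted p = 0.088, and 0.048 with the replicate block). Among 9 of 10 muscle protein breakdown genes tested 0 passed, with a median of -0.44, which was 0.15 within slide 2. The proteases calpain-1 and calpain-2 differed by -0.57 ± 0.18 (Capn1, limma adjusted p = 0.099) and -0.56 ± 0.18 (Capn2, limma adjusted p = 0.11). Of 6 stretch and fetal stress genes 0 passed, with a median of 0.22, which was -0.11 without saline 3, and Xirp1, an actin-binding protein of the intercalated disc, differed by -1.05 ± 0.52 (limma adjusted p = 0.22).

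The labelled tissue was checked against cell markers. The 12 metabolic and cytosolic markers of cardiomyocytes were well above background on all arrays, 0 passed, and their median difference was 0.41, or 0.46 within slide 2. Without saline 3 it was 0.13, with 6 of 12 above 0. The respiratory chain subunit genes Cox8b and Cox6a2 differed by 0.57 ± 0.23 (limma adjusted p = 0.15) and 0.43 ± 0.18 (limma adjusted p = 0.16). Of 9 skeletal muscle markers 6 were tested, with a median of 0.32, 4 above 0 and 2 below, the lowest at -0.85. Within slide 2 all 6 were above 0, and without saline 3 the number above 0 was 3 of 6. Their summed signal, in the units used for the neutrophil markers, was 6.78, 6.78 and 4.88 in rhTM hearts, against 10.37, 14.35 and 3.85 in saline hearts. The list as a whole thus did not go 1 way, and the 2 genes named next are those of lowest p. Myh4, a fast skeletal myosin heavy chain, was well above background on all rhTM arrays and on 0 of the saline arrays, and was at least 2.85-fold higher in rhTM hearts (limma adjusted p = 0.022). It entered the test through the rhTM arrays alone, and the p-value rests on saline values below background. The skeletal light chain gene Mylpf differed by 0.56 ± 0.16 (limma adjusted p = 0.085).

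Of 4 smooth muscle genes 0 rose and 1 fell, with a median of -0.45, which was 0.30 within slide 2 and -0.92 without saline 3. Of 4 pericyte genes 1 rose and 1 fell, with a median of 0.69. Acta2, smooth muscle actin, fell by 1.57 on the log2 scale (SE 0.24, limma adjusted p = 0.031), and within slide 2 the difference of -1.28 did not pass (limma adjusted p = 0.059), while Myh11, smooth muscle myosin, differed by -0.84 ± 0.52. Of the pericyte markers Pdgfrb fell by 1.01 (SE 0.19, limma adjusted p = 0.041) and Rgs5 rose by 1.19 (SE 0.24, limma adjusted p = 0.045). Neither of these pericyte genes passed within slide 2 (limma adjusted p = 0.066 and 0.092) or with the replicate block (0.055 and 0.062).

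In the other cell marker lists 0 genes passed. The endothelial markers Pecam1 and Kdr differed by -1.10 ± 0.36 and 0.55 ± 0.33, with a list median of -0.27 over 7 genes. The fibroblast markers Lum and Pdgfra differed by 1.20 ± 0.27 and -1.12 ± 0.27, with a median of -0.17 over 7 genes, and Lum passed with the replicate block (limma adjusted p = 0.045). The neutrophil genes Retnlg and Il1r2 differed by -4.68 ± 1.92 and -3.79 ± 1.86, and Retnlg passed with the replicate block (limma adjusted p = 0.048). The macrophage genes Lyz2 and Adgre1 differed by 1.85 ± 0.60 and 0.89 ± 0.51, with a median of 0.26 over 8 genes, 5 above 0 and 3 below.

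Of the markers of rarer cells, 3 of 6 for T and NK cells, 2 of 4 for adipocytes, 3 of 6 for erythroid cells and 3 of 3 for mesothelium could be tested. Cd3d and Nkg7, of T and NK cells, differed by 0.74 ± 0.34 and 0.92 ± 0.60. Cd79b, of B cells, differed by 0.38 ± 0.24. Alas2 and Hbb-bt, of erythroid cells, differed by -0.83 ± 0.72 and 0.76 ± 0.75, and Upk3b and Wt1, of mesothelium, by 1.05 ± 1.28 and 0.07 ± 0.24. The adipocyte genes Retn and Cfd were partly at background: only 1 of 3 rhTM arrays measured Retn above it and 2 of 3 saline arrays Cfd, and 2 of 3 saline arrays measured Upk3b, so that their differences (-0.88 for Retn, 1.73 for Cfd) rest in part on values below background.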

How the data were processed

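Per the labels' protocols, Cy3-labelled cRNA from heart RNA was hybridised to 1-colour Agilent arrays. Groups and mouse numbers were taken from the sample titles. The authors deposited scanner files of intensity values, which per the file headers come from Feature Extraction 10.7.3.1 with an mm9 grid (the submitters' processing notes name 9.1), and a value table of log2 values that, set against the scanner files, lacks 1 baseline across the slides and served only as an alternative. Per the file headers, the processed signal is the spot's intensity after background correction.

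The 75th percentile of each array was subtracted on the log2 scale from the processed signal, over the 56237 of 56605 non-control probes that kept an unflagged spot on every array, and limma 3.58.1 (R 4.3.3, functions lmFit and eBayes) was fitted with group as its term, with Benjamini-Hochberg adjustment over genes. Transcript accessions were matched to a RefSeq table (GRCm38.p6): 32789 probes gave 22815 gene symbols and 23448 gave none. The brightest probe stood for a gene, and a gene was tested where rhTM arrays, saline arrays or both all had that probe well above background (14701 genes). A fold against a group not above background is a bound, set on each array by the probe's signal or by the lowest signal well above background, whichever was higher. The steps were tested on simulated data.

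The 33 genes and the other lists were chosen with earlier results of these data known. By the rule set for naming, all 33 are named, with values per array for those that passed or whose groups were apart by 0.58 or more, and of each other list the genes that passed and the 2 of lowest p. Another B cell marker, beside Cd79b, is not reported here. The normexp alternative (offset 50) used the median spot signal, since the scanner files used here hold no mean signal. Replicate numbers are shared between groups. Across genes, the deviations from the group mean correlated at 0.319, 0.235 and 0.372 for arrays of the same number, and from -0.387 to 0.314 otherwise. By the rule that every same-numbered pair exceed 0.1, numbers were treated as pairing in the replicate block, an alternative to the main fit. The value with that block is given where it changes a call. As rhTM 2 and saline 1 also exceeded 0.1, at 0.314, the rule does not show that the numbers pair mice. The labels name 6 mice, and neither a litter nor a day that they share. The alternatives were background, scaling, filter, probe choice, slide, replicate block, array weights, the deposited table and leaving out arrays. The array weights ran from 0.093 for saline 3 to 8.6 for rhTM 2. Precision is limited by there being 3 arrays per group.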

Additional observations from a re-analysis of the deposited data

How the results depend on the processing

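Over 18 alternatives the 33 genes gave 594 values, of which 495 kept direction and side of the threshold, 51 newly passed, 13 no longer passed and 35 turned sign. The 394 genes that rose and 383 that fell became 207 and 222 with normexp, 126 and 21 with no filter on dim probes, 349 and 245 with the replicate block, 4555 and 4636 with array weights, 2205 and 2314 in the deposited table, 3869 and 3973 without rhTM 3 and saline 3, and 0 to 2922 and 0 to 2908 leaving out 1 array. Without rhTM 1, limma called 0 genes in either direction, with 1227 higher and 1367 lower at an unadjusted p under 0.05. With arrays centred on the tested genes' median, 483 rose and 268 fell, 64.3% of calls higher against 50.7%, and shifted the median of all genes to 0.10. Of the 33 genes, 2 rose and 0 fell, against 0 higher with no filter, 5 with the slide as a block, 12 higher and 6 lower with array weights, 15 higher in the deposited table, 10 higher and 3 lower without rhTM 3 and saline 3, and 0 to 5 higher and 0 to 3 lower leaving out 1 array. The median difference ran from 0.09 to 0.59 leaving out 1 array, and was 0.26 with quantile normalization, with 21 of the 33 genes above 0. The 75th percentile from the file headers, also chosen after seeing the data, gave 405 higher and 355 lower. The replicate block changed no call of a named gene besides those of Smyd1, Lmod3, Esrrg, Pdgfrb, Rgs5, Lum and Retnlg. Over all probes it changed the calls of the Lmod2 probe, the brighter Smyd1 probe and the Pdlim5 probe on NM_001190852. Log2 differences that turned sign were, with quantile normalization, Myl3 -0.27, Tnnt2 -0.0094, Tpm1 -0.38 and Ttn -0.11, with the mean of a gene's probes, Tpm1 -0.25 and Myh11 0.37, in the deposited table, Tpm1 -0.00074, Actn2 0.25, Ldb3 0.18, Myh11 0.59 and Alas2 0.58, with the slide as a block, Actn2 0.55, Ldb3 0.74, Synpo2l -0.23, Des 0.17, Myocd 0.15, Xirp1 0.15, Myh11 0.37 and Hbb-bt -0.44, with centring, Ldb3 0.0020, with array weights, Unc45b -0.087, with normexp, Upk3b -0.17, and without rhTM 3 and saline 3, Myot -0.040, Unc45b -0.040 and Upk3b -0.21. Leaving out 1 array, the range spanned 0 for Myl3 (-0.049 to 0.26), Tnnc1 (-0.19 to 0.46), Actc1 (-0.023 to 1.71), Tpm1 (-0.037 to 0.070), Ttn (-0.14 to 0.27), Actn2 (-0.49 to 0.043), Ldb3 (-0.52 to 0.22), Myot (-0.32 to 0.70), Unc45b (-0.27 to 0.30), Upk3b (-0.33 to 2.46) and Wt1 (-0.12 to 0.20). No filter tests more genes and leaving out arrays fits fewer, and the cause of the other changes was not tested.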
